A study of Homo sapiens with 10 samples.

Results

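Knockout cells lacking SLFN11 were compared after 4 h of camptothecin and after DMSO. The cells are CCRF-CEM, a T lymphoblast line derived from human leukemia, and both libraries carry the SLFN11 knockout. One group received DMSO, the other 100 nM camptothecin for 4 h, and each group is 1 library, so 2 of the 10 libraries of the study are compared. The other 8 are knockout cells given 100 nM prexasertib, an inhibitor of the checkpoint kinase CHK1, for 2, 4 or 6 h, and SLFN11-positive parental cells under the same 5 conditions. The labels do not say if the knockout cells are a single clone. Peak lists hold no gene names and gene positions were not used, so neither the SLFN11 locus nor T cell marker genes were examined, and regions are given by hg19 position only.

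ATAC-seq maps open chromatin with a transposase that cuts DNA where nucleosomes leave it exposed. The accessible regions it finds are largely promoters and enhancers, where bound proteins displace nucleosomes. Camptothecin traps topoisomerase I, the enzyme that relieves torsion ahead of polymerases, on nicked DNA, and replication forks that run into the trapped enzyme break. SLFN11 is a protein recruited to such stressed forks. In a bulk library, a site that closes in part of the cells and a site that becomes less accessible in every cell cannot be told apart.

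An accessible region was a stretch covered by a peak in at least 1 of the 10 deposited lists, with overlapping peaks merged, on chromosomes 1 to 22 and X. Of 35505 such regions, 22418 (63.1%) were called in at least 1 of the 2 knockout libraries. The DMSO list held 20222 peaks in 19954 regions and the camptothecin list 18851 peaks in 18591 regions. A region is called lost when only the DMSO list has a peak in it and gained when only the camptothecin list does. Summit height is the number of fragments piled up at the summit over the background pileup of that library, which was 1.59 with DMSO and 1.74 after camptothecin. The camptothecin background was thus 1.09 times that with DMSO, and an equal pileup in both libraries corresponds to a log2 height change of -0.13. With 1 library per group, no difference below was set against a spread between replicates and no test was possible. The intervals (95%, exact binomial for shares, order statistics for medians) cover counting error over regions only, and regions are not replicates.

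Accessible regions were lost on balance after camptothecin, and most of those called in both libraries were lower. Of the 19954 regions called with DMSO, 3827 were lost, 19.2% (18.6% to 19.7%), and of the 18591 called after camptothecin 2464 were gained, 13.3% (12.8% to 13.7%). The total length covered by peaks was 12406 kb with DMSO and 11534 kb after camptothecin. The remaining 16127 regions were shared, and in 16122 of them every summit gave a pileup. Their median log2 height change was -0.20 (-0.20 to -0.19), a fold of 0.873, with 11704 regions (72.6%) lower and 4418 (27.4%) higher. On this scale an equal pileup counts as lower, and the median was -0.07 both without division and over the local background. For comparison, 9.40%, 13.5% and 11.3% of the same DMSO regions were lost after 2, 4 and 6 h of prexasertib. Those libraries had higher backgrounds than the camptothecin library, 2.1, 1.85 and 1.99, and their comparisons share the DMSO library with it.

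Large changes of height were few and went mostly down. Of the 16122 shared regions 2083 (12.9%) were at least 1.5-fold lower and 235 (1.46%) at least 1.5-fold higher. At least 2-fold lower were 211 (1.31%) and at least 2-fold higher 18 (0.112%). The split depended on the scale. With the local background as divisor, 761 regions were at least 1.5-fold lower and 238 higher, at a median log2 change of -0.07. With the pileups as they are, it was 1202 and 528. Relative to the median change of all shared regions the counts were nearly level, 763 lower and 743 higher. At the 1.5-fold limit the nearest rises were at log2 changes of 0.591 inside and 0.585 outside it.

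**Figure D1:**
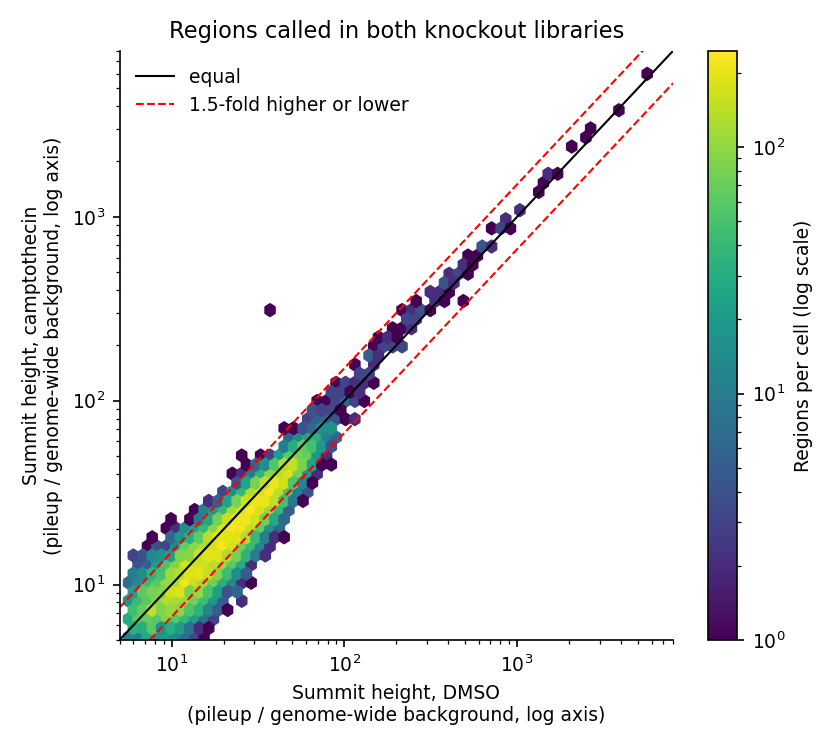
Summit height after camptothecin (vertical, log axis) against DMSO (horizontal, log axis) for the 16122 regions called in both knockout libraries, with the number of regions per cell as colour. Most of the cloud lies below the line of equal height, 2083 regions lie on or below the lower and 235 on or above the upper 1.5-fold line, and the tallest regions lie near equality.

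The lost regions were weak ones. The DMSO regions were ranked by the deposited −log10 q into 10 bins of equal size, bin 1 being the weakest. In bin 1, 61.0% (58.8% to 63.1%) were lost, in bin 3 36.7% and in bin 5 11.8%. In bin 10, the strongest, 2 of 1996 were lost, 0.100%. The median lost peak had a −log10 q of 4.29, a pileup of 13 fragments and a width of 298 bp, against 14.8, 32 and 645 bp for the DMSO peaks of shared regions. The gained regions had a similar profile, with a median −log10 q of 3.89, a pileup of 13 and a width of 288 bp. They made up 52.1% (49.8% to 54.4%) of the weakest bin of the camptothecin list and 0.269% of the strongest. Of the 10799 DMSO regions with a −log10 q of at least 10, 180 had no camptothecin peak, 1.67%, and of the 9885 camptothecin regions of that strength 81 had no DMSO peak, 0.819%. A camptothecin peak lay within 1 kb of 116 of the 3827 lost regions (3.03%).

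A strength taken from the DMSO library is also the base of the change, so the regions were ranked again by libraries outside the comparison. This ranking used the 17603 regions called in all 3 knockout prexasertib libraries, by their mean height there. Of these, 16214 (92.1%) were called with DMSO and 15617 (88.7%) after camptothecin. In the lowest of 10 bins the shares were 61.8% (59.5% to 64.1%) and 50.03% (47.7% to 52.4%), and in bin 3 89.6% and 82.0%. The gap closed with strength, to 98.8% and 98.5% in bin 6. In the highest bin 1756 of 1761 regions were called with DMSO and 1758 after camptothecin.

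**Figure D2:**
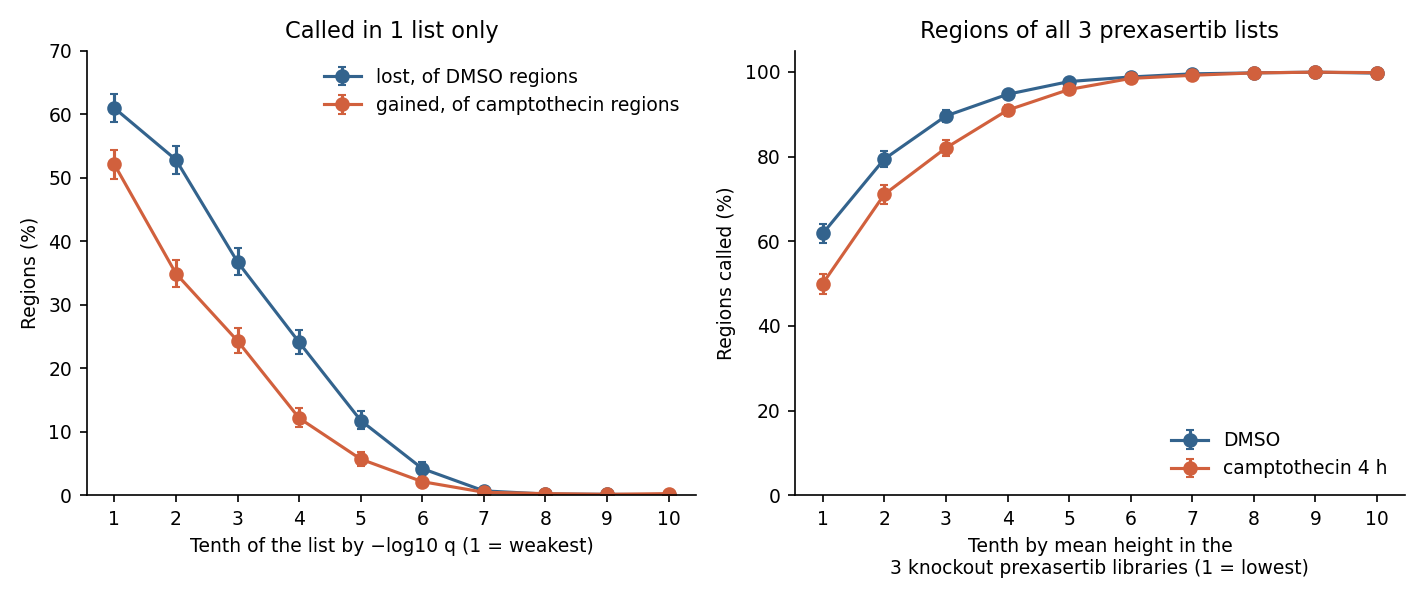
Left, the share of regions called in 1 knockout list only, in 10 bins of −log10 q in that list; right, the share of regions of the 3 knockout prexasertib lists that were called with DMSO and after camptothecin, in 10 bins of mean prexasertib height. Bars are 95% binomial intervals; 61.0% of the weakest DMSO bin was lost and 52.1% of the weakest camptothecin bin was gained, and detection after camptothecin lies below that with DMSO in the lower bins.

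Among regions called in both lists, the median height change was almost the same over most of the range of strength. Weak regions dropped out of this median more often, because they were lost. In the lowest of 10 bins of prexasertib height 458 of all 1761 regions were lost, 26.0%, or 42.1% of the 1089 called with DMSO. In the highest bin 0.170% of all regions were lost, so the medians cannot be set directly against these shares. By the outside ranking, the median log2 change of shared regions was -0.13 (-0.21 to -0.13) below a height of 10, -0.21 between 10 and 20, -0.21 between 20 and 40, and -0.20 between 40 and 60. The spread narrowed, with an interquartile range of 0.53 between 10 and 20 and 0.32 between 40 and 60. Large changes thinned out accordingly. In the lowest of 10 bins 49 of 1497 regions (3.27%) were 1.5-fold higher and 251 (16.8%) 1.5-fold lower, and in the highest 2 (0.134%) and 51 (3.41%). Ranked by DMSO height instead, the weakest bin had a median change of 0.08, of the opposite sign. A region there had to be called after camptothecin to be counted, and its low DMSO height is itself part of the ratio.

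The tallest regions differed from the rest in height over the genome-wide background and in pileup. The median was -0.08 (-0.16 to -0.003) in the 59 regions between heights of 80 and 100. In the 127 regions of 100 or more it was 0.14 (0.11 to 0.17), with 101 of 127 (79.5%) higher, 1 of them past 1.5-fold, and none 1.5-fold lower. Before division by the background their pileups rose by a median log2 of 0.27, and over the local background the change was 0.003. The bands below had -0.05 (40 to 60), -0.02 (60 to 80) and 4.76e-05 (80 to 100) over the local background. The tallest regions thus did not stand apart on that scale. In parental cells the median of 123 of these regions was 0.07 (0.02 to 0.09), against 0.91 between heights of 20 and 40. These regions clustered, 90 of the 127 lying in 15 windows of 5 Mb. Their median DMSO width of 720 bp was below the 1107 bp of regions between 80 and 100. The strongest by −log10 q, on chromosome 1, 121484085 to 121485429, had 9025 fragments with DMSO and 10420 after camptothecin, a log2 height change of 0.08, in peaks of 1343 and 1345 bp with 3 summits each. Repeated or poorly mappable sequence was not filtered out, and whether these regions overlap it was not tested. The band limits and this region were chosen after the values were seen.

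**Figure D3:**
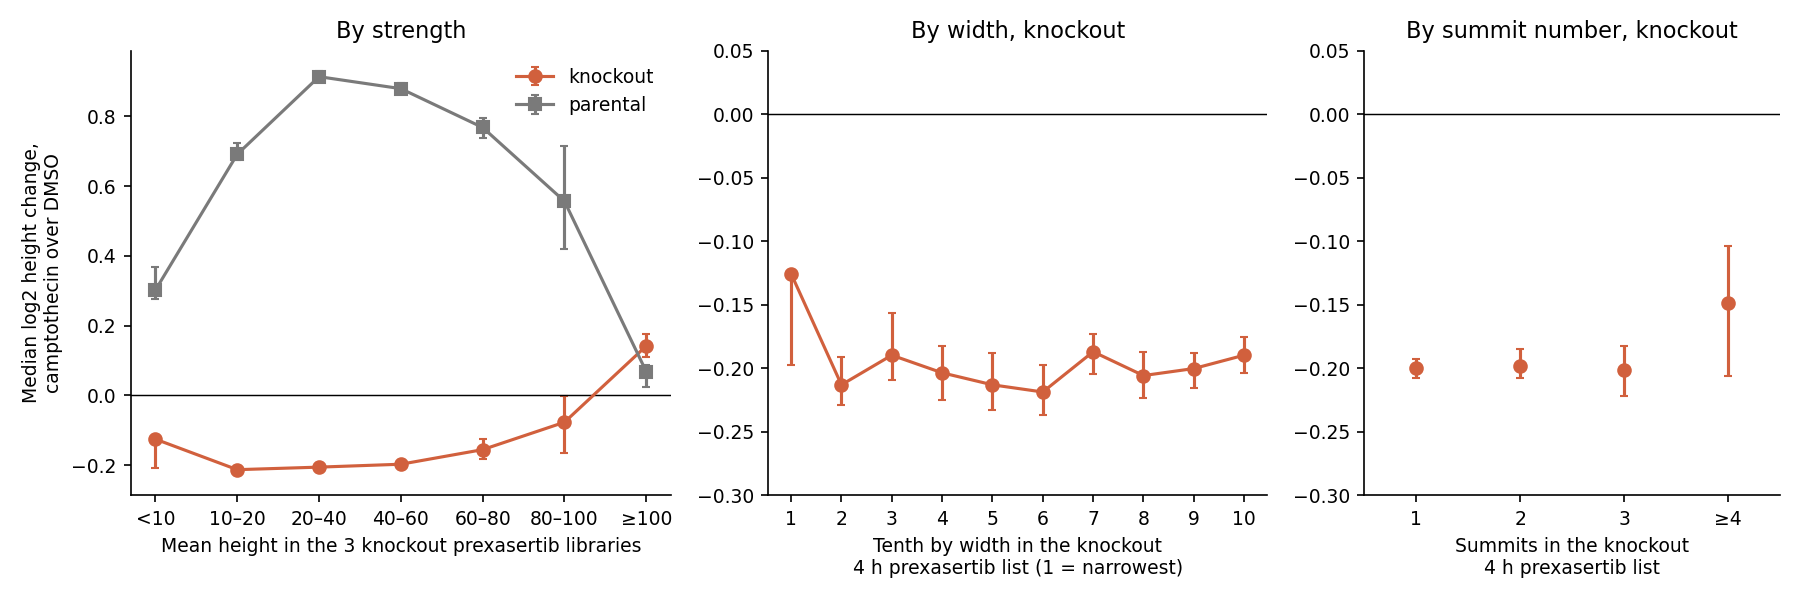
Median log2 height change after camptothecin with 95% intervals, by mean height in the 3 knockout prexasertib libraries (left, knockout and parental cells), in 10 bins of width in the knockout 4 h prexasertib list (middle) and by number of summits in that list (right). The knockout median stays near -0.20 between heights of 10 and 60 and is 0.14 in the tallest regions, where the parental median is 0.07.

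Narrow regions had the larger share lost, also at like strength, and likewise the larger share gained. Of the narrowest of 10 bins of DMSO peaks, with a median of 223 bp, 59.8% (57.6% to 62.0%) were lost, and of the widest, with a median of 1204 bp, 0.551%. Narrow peaks were also the weaker ones, at a median −log10 q of 4.29 against 27.0. The regions were therefore split at the median width within 5 bins of −log10 q. In the weakest of the 5, 66.3% (64.2% to 68.4%) of the narrower and 47.4% (45.2% to 49.6%) of the wider peaks were lost. In the next bin it was 42.1% and 18.8%, and in the one after that 13.9% and 2.01%. Wider peaks still had slightly higher −log10 q within a bin, at medians of 3.59 against 3.21 in the weakest. Gained regions had the same pattern in the camptothecin list. In its narrowest bin 47.5% (45.2% to 49.8%) were gained, and in its widest 0.161%. A narrow peak was thus more often called in 1 list only, in either direction.

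Regions with several summits had a smaller share lost than those with 1. A peak with more than 1 summit has several local maxima of signal within 1 continuous enrichment. Of 15610 DMSO regions with 1 summit 3678 were lost, 23.6% (22.9% to 24.2%). It was 139 of 3391 with 2 summits, 4.10%, 8 of 733 with 3, 1.09%, and 2 of 220 with 4 or more, 0.909%. In the weakest of the 5 bins of −log10 q the shares were 58.8% (57.2% to 60.4%) for 1 summit and 23.4% (17.9% to 29.6%) for 2 or more, and in the next 34.9% and 10.3%. The classes still differed within the weakest bin. Regions with 2 or more summits had a median −log10 q of 4.04 against 3.39 and a median width of 513 against 297 bp. Width was not held equal in this split. The share gained was also smaller with several summits than with 1. Of 14681 camptothecin regions with 1 summit 2410 were gained, 16.4%. It was 52 of 3084 with 2 summits, 1.69%, 1 of 634 with 3, 0.158%, and 1 of 192 with 4 or more, 0.521%. The last classes rest on 1 gained region each, and strength was not held equal for the gained shares.

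Among shared regions the height change varied little with width or summit number. With both read from the knockout 4 h prexasertib list, the medians ran from -0.22 to -0.13 over 10 bins of width. They were -0.20 for 1, 2 and 3 summits and -0.15 (-0.21 to -0.10) for 4 or more. Where both peaks had 1 summit, it lay within 100 bp in 8165 of 10172 regions (80.3%), at a median distance of 41 bp. With 2 or more DMSO summits, the strongest lay within 100 bp in 2360 of 3854 (61.2%), at a median of 67 bp. Of 15725 regions with 1 peak in each list, 11343 (72.1%) kept their number of summits, 2365 (15.04%) had fewer after camptothecin and 2017 (12.8%) more. Of the 3854 peaks with 2 or more DMSO summits 61.4% had fewer, while 1699 of 11871 (14.3%) with 1 summit had more. The DMSO summit number chose both groups, and a peak with 1 summit cannot have fewer. The contrast of these shares therefore does not show a direction of change.

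Peaks of shared regions were slightly narrower, at a median log2 width change of -0.03 (-0.04 to -0.03), with 8769 narrower and 7289 wider. The largest narrowing was on chromosome 22, 40573014 to 40574701, with a longest peak of 1680 bp and 36 fragments in the DMSO list, 228 bp and 19 fragments after camptothecin, and 1531 bp after 4 h of prexasertib. On chromosome 6, 73331501 to 73332945, the width went from 1295 to 220 bp while the pileup was 19 and 20, so the peak there was narrower without a smaller pileup. The other large narrowings, on chromosome 15 at 23512073 to 23513397 and chromosome 22 at 29206873 to 29208008, ended at 206 and 202 bp, the shortest camptothecin peak of any region being 202 bp. The largest widenings started from similarly short DMSO peaks. On chromosome 4, 55523639 to 55525105, the width went from 223 to 1024 bp with 12 and 19 fragments. On chromosome 11, 78128022 to 78129213, it went from 243 to 1115 bp with 23 fragments in both. The others were on chromosome 10, 62702678 to 62704280, from 215 to 959 bp, and chromosome 2, 181224385 to 181225638, from 208 to 903 bp.

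The largest falls were from ordinary to weak peaks. The 8 largest, among regions with a pileup of at least 20 in either library, were between 2.68-fold and 3.04-fold lower, with 24 to 40 fragments at the DMSO summit and 9 to 15 after camptothecin. In all 8 the camptothecin height was the lowest and the DMSO height the highest of the knockout libraries that called the region, though the ratio of those heights chose them. On chromosome 5, 6359889 to 6360750, 39 fragments with DMSO stood against 14 after camptothecin, a log2 height change of -1.60, and the prexasertib libraries of 2, 4 and 6 h had 24, 28 and 26. Parental cells also had less here, 24 with DMSO and 10 after camptothecin. On chromosome X, 48768687 to 48769359, the pileup was 28 with DMSO, 25, 32 and 26 after prexasertib and 11 after camptothecin, a log2 height change of -1.47. Here parental cells went the opposite way, from 11 to 36 fragments. The region on chromosome 1, 171308440 to 171309039, had 40 and 15 fragments, and that on chromosome 6, 43351261 to 43351860, 33 and 13. The last 4 were on chromosome 10, 73136948 to 73137393, chromosome 9, 36458039 to 36458940, and chromosome 11, 32592974 to 32593577 and 65222111 to 65222843. Exact Poisson intervals of the pileups, which cover counting error only, did not overlap in 3 of the 8. The same pileups gave the heights that chose these regions out of 13141, so this count is no test. Of the 4 falls measured in both parental libraries, 3 were higher and 1 lower after camptothecin there.

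The largest rise stood apart from the others. On chromosome 3, 96336130 to 96336973, the pileup was 63 with DMSO, 584, 567 and 562 after prexasertib and 541 after camptothecin, a fold of 7.87 in height. The called DMSO summit alone was low among the 5 knockout libraries. The DMSO peak of 313 bp had 1 summit, against 841 bp and 3 summits after camptothecin. Its −log10 q was 3.45 despite 63 fragments, while lost peaks had medians of 4.29 and 13 fragments. The −log10 q after camptothecin was 434. Local background enters this value, and whether the DMSO list missed a taller summit here was not tested. Parental cells had 632 fragments with DMSO and 536 after camptothecin. The next 7 were between 2.20-fold and 2.55-fold higher and started from weak DMSO summits. On chromosome 15, 48469849 to 48470745, the pileup was 9 with DMSO, 16, 19 and 18 after prexasertib and 25 after camptothecin, and the peak went from 312 to 717 bp. On chromosome 20, 62362103 to 62362660, it was 15 with DMSO, 32, 33 and 28 after prexasertib and 38 after camptothecin. DMSO was thus the low library here as well, and its height was the lowest of the knockout libraries in all 8, while the camptothecin height was the highest in 7. On chromosome 1, 151226894 to 151227643, the pileup went from 13 to 32, and on chromosome 14, 39735841 to 39736809, from 14 to 34. The others were on chromosome 1, 8014104 to 8014790 and 243579056 to 243579578, and chromosome 18, 74432962 to 74434056. The Poisson intervals did not overlap in 3 of the 8, which is no test here either, as the same pileups chose the regions. Of 7 rises measured in both parental libraries 6 were higher and 1 lower after camptothecin there. In parental cells 93.2% of all 13053 regions measured in both pairs were higher.

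**Figure D4:**
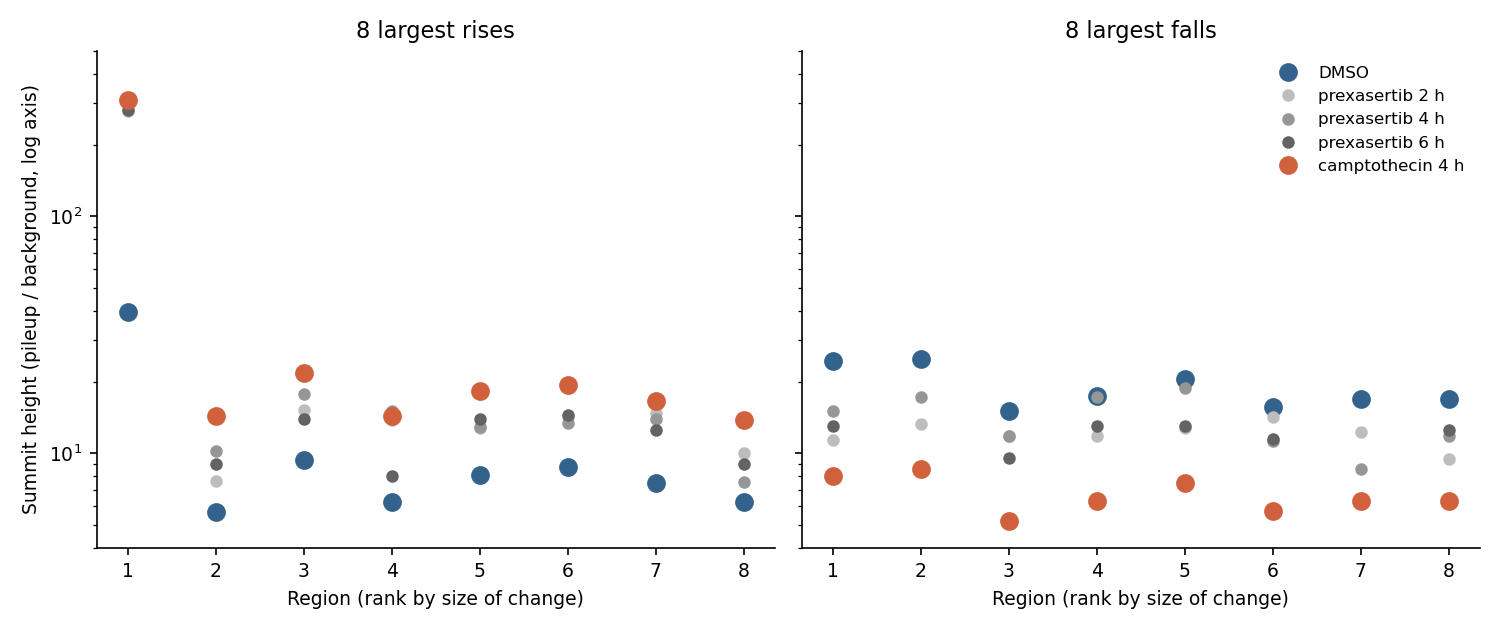
Summit height (log axis) in the 5 knockout libraries at the 8 regions with the largest rise (left) and the 8 with the largest fall (right), ordered by size of change; each point is 1 library, and a region not called in a library has no point there. DMSO is the lowest library in all 8 rises, and in all 8 falls DMSO is the highest and camptothecin the lowest.

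All regions past 1.5-fold are described the same way, with no test, since DMSO and camptothecin heights chose them. In the 200 regions at least 1.5-fold higher that all 5 knockout libraries measured, the median height was 8.78 with DMSO. The camptothecin median was 14.9, and those of the prexasertib libraries were 14.3, 12.4 and 13.0 (2, 4 and 6 h). Relative to the prexasertib mean, the median log2 height was -0.56 with DMSO and 0.19 with camptothecin in these regions, against -0.09 and -0.29 over all regions measured, so both libraries departed from their usual place. DMSO was below all 3 prexasertib libraries in 164 of them (82.0%) and camptothecin above all 3 in 94 (47.0%). In the 1955 regions at least 1.5-fold lower, the median height was 20.1 with DMSO, 18.6, 17.8 and 17.6 with prexasertib, and 12.1 with camptothecin. Camptothecin was below all 3 prexasertib libraries in 1718 of these (87.9%) and DMSO above all 3 in 962 (49.2%). Over all 14964 regions measured in the 5 libraries, camptothecin was below all 3 in 9423 (63.0%) and above all 3 in 888 (5.93%). DMSO was below all 3 in 5413 (36.2%) and above all 3 in 2653 (17.7%).

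The strongest regions called in only 1 of the 2 lists were mostly called in other knockout libraries too. The lost region with the highest −log10 q, 217, was on chromosome 5, 134263416 to 134263686, where the DMSO summit had 643 fragments and the prexasertib summits 695 (4 h) and 706 (6 h), while camptothecin and 2 h of prexasertib gave no peak. The next, on chromosome 11, 48817849 to 48818063, had 93 fragments with DMSO in a peak of 215 bp. The gained region with the highest −log10 q, 435, was on chromosome 4, 49093972 to 49095417, with 681 fragments after camptothecin and a peak in 9 of the 10 libraries, all but that with DMSO. The next, on chromosome 10, 135524373 to 135524747, had 78 fragments in a peak of 232 bp. Of the 8 strongest lost and the 8 strongest gained regions with no peak of the other list within 1 kb, 6 each had a peak under 300 bp, as did 50.6% of all lost and 54.5% of all gained regions. Each of the 16 was called in at least 1 knockout prexasertib library. Repeated or poorly mappable sequence was not filtered out, and whether these 16 overlap it was not tested. The remaining gained ones were on chromosome 7, 57997195 to 57997592, 57947528 to 57947797 and 10005 to 10229, on chromosome 11 at 48948360 to 48948607, on chromosome 18 at 4510731 to 4511027, and on chromosome 1 at 121359942 to 121360178.

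A few strong losses were of ordinary width. On chromosome 1, 28994962 to 28996536, the DMSO peak was 873 bp long with 2 summits and 49 fragments, the prexasertib libraries had 42, 46 and 46, and the camptothecin list had no peak. On chromosome 3, 183003330 to 183004103, a DMSO peak of 774 bp had 27 fragments, the prexasertib libraries had 33, 21 and 26, and parental cells went from 18 to 37 with camptothecin. The latter region was chosen after its values were seen. The other lost regions among the 8 lay at 77481635 to 77481982 of chromosome 1, at 19000417 to 19000830 and 23039176 to 23039557 of chromosome 14, at 2689418 to 2689852 of chromosome 17 and at 53461088 to 53461652 of chromosome X.

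Most lost and gained regions were also called elsewhere in the study. Of the 3827 lost regions 1249 (32.6%) were called in all 3 knockout prexasertib libraries and 890 (23.3%) in none. Of the 2464 gained regions it was 652 (26.5%) and 718 (29.1%), and of the shared regions 92.8% and 0.620%. Among the lost regions 605 were called in no other of the 10 libraries, and among the gained regions 532.

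The loss was spread over the genome. More regions were lost than gained on all 23 chromosomes, and all 23 median height changes were below 0. The share lost ran from 12.6% (10.7% to 14.8%) on chromosome 19 to 23.5% (18.4% to 29.2%) on chromosome 21. The share gained ran from 8.67% (7.03% to 10.6%) on chromosome 19 to 22.2% (17.9% to 27.1%) on chromosome 18. The ratio of lost to gained regions was lowest on chromosome 18, 1.01 (75 and 74), and highest on chromosome 22, 2.56 (92 and 36). Median log2 height changes lay between -0.24 (-0.27 to -0.20) on chromosome 20 and -0.13 on chromosomes 4 and 21, the value that an equal pileup gives.

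**Figure D5:**
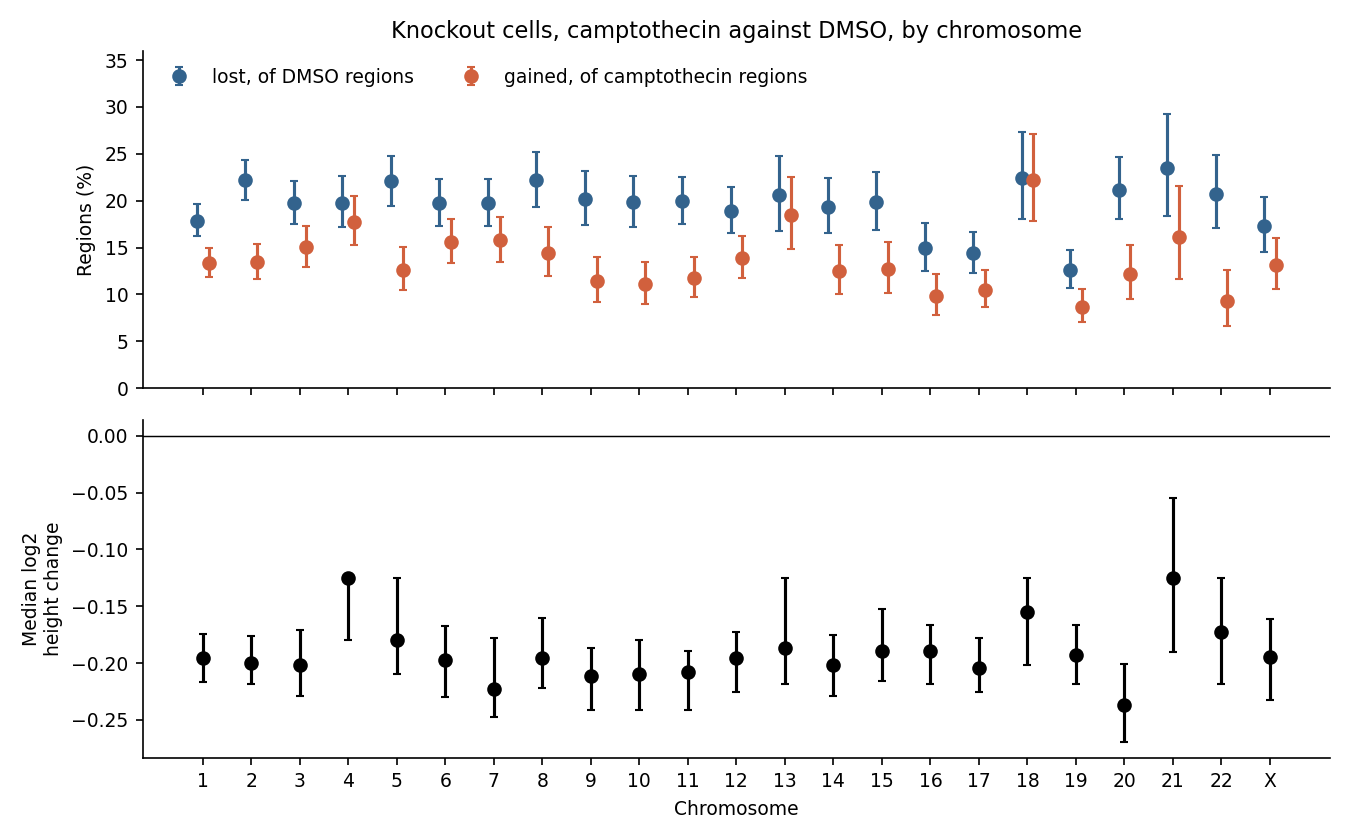
Share of DMSO regions lost and of camptothecin regions gained (top) and median log2 height change of shared regions (bottom) by chromosome, with 95% intervals. Lost exceeds gained on every chromosome, by 75 against 74 regions on chromosome 18, and all 23 medians lie below 0.

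Windows of 5 Mb with at least 20 shared regions gave a similar picture. Of 341 windows 333 had a median log2 change of 0 or below. The lowest were on chromosome 7 from 65 to 70 Mb, at -0.39 (-0.55 to -0.13), chromosome 9 from 125 to 130 Mb, at -0.38, and chromosome 1 from 10 to 15 Mb, at -0.37. The highest was on chromosome 4 from 45 to 50 Mb, at 0.19 (0.11 to 0.25), with 26 of 35 regions higher, and it was the only window of the 341 whose interval lay above 0. The next were on chromosome 16 from 45 to 50 Mb, at 0.12, and chromosome 10 from 40 to 45 Mb, at 0.11. These 3 windows held 10, 7 and 12 of the 127 tallest regions. Without those the medians were 0.11, -0.14 and -0.09. Grouped by the number of accessible regions they held, the densest windows had a median of -0.21 (-0.22 to -0.20) and the sparsest -0.20 (-0.21 to -0.18), while in parental cells it was 0.93 and 0.70.

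Neighbouring regions shared little of their change. Across pairs of adjacent shared regions, Pearson's correlation of the log2 changes was 0.14 over 661 pairs less than 5 kb apart, 0.07 over 2732 pairs 5 to 20 kb apart and -0.002 over 6820 pairs 20 to 100 kb apart. Nearby regions share a local background and both libraries. Of regions at least 1.5-fold higher, the next region along the chromosome was past the same limit in 0 of 13 less than 5 kb apart, 2 of 41 at 5 to 20 kb, 3 of 86 at 20 to 100 kb, 2 of 82 at 100 to 1000 kb and 2 of 13 farther apart, beside 1.46% of all shared regions.

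The same drug in parental cells, in libraries that share none with the knockout pair, gave a median change of the opposite sign. Over the 13053 regions measured in both pairs, the median log2 change was 0.81 (0.81 to 0.83) for parental cells against -0.20 (-0.20 to -0.19) for the knockout. The parental change exceeded the knockout change by a median of 1.02 (1.01 to 1.03). Part of this comes from the division by background. The parental background was 1.63 with DMSO and 1.45 after camptothecin, while the knockout background went from 1.59 to 1.74. At equal pileup the division thus raises the parental change and lowers the knockout one. The parental change is given on this scale only. In parental cells 66.3% of 14338 shared regions were at least 1.5-fold higher and 0.921% as much lower. Across the 13053 regions Pearson's correlation of the changes was -0.04, a description over regions that share their libraries. The 153 regions 1.5-fold higher in knockout cells had a parental median of 0.68 (0.55 to 0.74), and the 1626 regions 1.5-fold lower one of 0.79 (0.76 to 0.82). Of the 3827 regions lost in knockout cells 1165 (30.4%) were gained with camptothecin in parental cells and 259 (6.77%) lost. Of the 2464 gained it was 691 (28.0%) and 155 (6.29%), and of the 16127 shared regions 1951 (12.1%) and 336 (2.08%). On another base, that of the parental lists themselves, 33.1% of their camptothecin regions were gained and 8.64% of their DMSO regions lost, which cannot be set directly against those shares. The difference between genotypes was not tested.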

How the data were processed

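The authors deposited 1 peak list per library, on hg19. The submitters' processing notes name MACS2 2.1.2, BWA 0.7.17, Picard 2.9.2, SAMtools 1.8, Trimmomatic 0.39 and Trim Galore 0.6.2. Peak calling parameters, duplicate removal and any shift of reads are not stated in those notes as used here. The deposited columns were the score (the −log10 q times 10), the fold at the summit over the local background, which is a ratio, the −log10 p-value and −log10 q-value, and positions. For parental cells at 4 h of prexasertib the series record reports a truncated raw file, and that list enters only the merging of regions and counts over all libraries.

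Lines with equal start and end were joined into 1 peak with several summits. Peaks of all 10 lists that overlapped by at least 1 bp were merged into regions. A whole pileup was solved from the deposited fold and −log10 p. It was kept if it matched the −log10 p within 0.001 or, above 270, within 0.01%, as at least 99.97% of summits did in every list. The smallest local background was taken as the genome-wide one, from 1.33 to 2.1 over the 10 libraries. It stands for depth only as far as it follows depth, and reads without molecular identifiers are not independent molecules. The steps, in Python 3.11.15 with SciPy 1.17.1, were tested on simulated data.

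Named regions were the 8 strongest lost and gained, the 8 largest rises and falls, the 4 largest width changes each way and the 3 highest and lowest windows. The comparison and these choices were made with earlier results of these data known. Alternatives covered merging, overlap, threshold, depth, list length, background and baseline. Genes and sequences were not analysed here.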

Additional observations from a re-analysis of the deposited data

Results flagged for a closer look

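These values differ in sign between the genotypes, with 1 library per group, and the difference was not tested. The median log2 height change with camptothecin was -0.20 in knockout and 0.78 in parental cells, over the regions shared by the DMSO and camptothecin lists of each. The backgrounds that divide these heights moved in opposite directions, from 1.59 to 1.74 in knockout and from 1.63 to 1.45 in parental cells. The median log2 width change was -0.033 in knockout and 0.22 in parental cells. Regions gained minus lost came to -1363 in knockout and 5735 in parental cells.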

How the results depend on the processing

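More regions were lost than gained under each of the 7 alternatives tried for these counts. With equal list lengths the difference was -63, as lists of equal length force it near 0. With only peaks of a −log10 q of at least 10 kept in both lists there were 1898 lost and 984 gained. A weaker peak in the other list did not count there. Of the DMSO regions of that strength 180 had no camptothecin peak of any strength, and of the camptothecin regions 81 had no DMSO peak. With a reciprocal overlap of 50% 5639 were lost and 4268 gained. The median log2 height change was -0.068 over the local background and -0.070 without division. With strength from the prexasertib libraries the weakest of 10 bins had a change of -0.13, opposite in sign to the 0.08 by DMSO height, with 42.1% lost against 61.0%, and the strongest bin had -0.15 against -0.21. With width from the 4 h prexasertib list the narrowest bin had -0.13 against -0.07. Regions 1.5-fold higher numbered 743 after subtraction of the median, 528 without division and 18 at 2-fold, against 235. Regions lower numbered 763, 1202 and 211, and 761 over the local background, against 2083. The causes were not tested. The counts past 1.5-fold over the local background and without division, and the counts with peaks of at least 300 bp only, were added after seeing the data. Called regions had a pileup of at least 9 fragments in both knockout lists, so changes below that were not detectable. A split by promoters was not run, as gene positions were not used. No paired analysis was possible because each group is 1 library.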
